A study of Mus musculus with 6 samples.

Results

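The RNA sensing and interferon response genes described here are 9 genes chosen by name: the RNA sensors Ddx58, Ifih1 and Dhx58, the adaptor Mavs, the transcription factors Irf3 and Irf7, and the interferon-induced effectors Isg15, Ifitm3 and Bst2. They are 9 of 56689 identifiers in the deposited tables, and each symbol matched 1 Ensembl gene of GENCODE M21. Total RNA of C57BL/6 mouse embryonic stem cells was made into sequencing libraries, 3 of wild-type cells (WT 1 to 3) and 3 of genotype Max-/- (Max-KO 1 to 3). Max is the partner through which MYC proteins bind DNA. All 6 libraries were labelled embryonic stem cells and no agent, interferon or virus is named for any of them. The labels name neither the method that removed Max nor the number of clones, and whether the replicates were separate cultures is not stated. The p-values therefore measure only how far these libraries spread, which may be technical.

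Cells detect viral double-stranded RNA in the cytosol through the helicases RIG-I (the product of Ddx58) and MDA5 (Ifih1), which act through MAVS on mitochondria to activate IRF3 and IRF7 and so switch on type I interferon genes. Secreted interferon then acts through its receptor, JAK kinases and STAT proteins with IRF9 to raise interferon-stimulated genes. Pluripotent stem cells are known for a weak interferon response and for keeping a subset of interferon-stimulated genes, among them Ifitm genes and Bst2, active without interferon.

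An estimated 20.9 to 28.3 M fragments stood behind each library, read from the steps between low values, so 1 FPKM (fragments per kilobase of transcript, scaled to the mapped total) over a 2 kb transcript corresponded to 36.4 to 49.4 fragments. Max was listed at 41.6, 50.2 and 42.3 FPKM in WT and 35.8, 39.6 and 43.4 FPKM in Max-KO, and a value summed over the gene cannot reveal a lost exon and leaves the labels unchecked. The stem cell markers Pou5f1, Nanog, Sox2, Zfp42, Esrrb and Tdgf1 were at 46.8 FPKM or more in every library. The 10 markers of fibroblasts, which serve as feeder cells, summed to 10.2 to 11.9 FPKM in WT and 10.1 to 14.2 FPKM in Max-KO, with none at 0 throughout. Thy1 was the highest (means of 4.59 and 4.64 FPKM), Col1a1 was called higher (1.92 to 3.16 FPKM, limma adjusted p = 0.00368), and Dcn and Lum stayed at or below 0.35 FPKM. The 10 blood cell markers summed to 29.2 to 37.1 and 32.3 to 37.0 FPKM, mostly from Cd68, with Tyrobp at 0 in all 6 libraries and Lyz2 at or below 0.04. Within that list Cd3e was called higher in Max-KO (1.37 to 4.65 FPKM, limma adjusted p = 5.77e-04), as was Csf1r (0.0467 to 1.05 FPKM, limma adjusted p = 0.0192), which passed the filter only through Max-KO, and Ptprc went from a mean of 0.01 to 0.233 FPKM. Markers of primitive endoderm summed to 1.67 to 1.94 FPKM in WT and 5.22 to 9.42 FPKM in Max-KO, those of trophoblast to 34.4 to 40.1 and 48.9 to 53.4, and those of endothelium, with Emcn at 0 throughout, to 51.4 to 56.4 and 93.9 to 104 FPKM. Of 4 tested endothelial markers 3 were called higher, beside 43.0% of all genes tested, and Tie1 passed the filter only through Max-KO. The sum was mostly Pecam1 (40.2 to 70.9 FPKM) and Tek (11.6 to 24.3 FPKM). Kdr was called lower (1.32 to 0.537 FPKM, limma adjusted p = 0.00471), passing the filter only through WT. The trophoblast sum was mostly Krt8 (32.1 to 37.8 FPKM), which was not called. The other 4 tested were called higher, beside 43.0% of all genes tested. Of these, Elf5 and Krt7 passed the filter only through Max-KO and so could only be higher. The part of these marker shifts in the results below was not tested. In bulk RNA, fewer cells that express a gene and less RNA per cell cannot be told apart.

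The 9 genes did not move as 1 group between the genotypes. In the libraries labelled Max-KO, the effectors Bst2 and Ifitm3 were lower, Bst2 by 9.35-fold and Ifitm3 by 2.50-fold in mean FPKM, and the sensor Dhx58 was lower at a level near 1 FPKM. The sensor Ddx58 was 2.31-fold higher and Irf3 1.34-fold higher, while Mavs differed by less than the test could call. Ifih1, Irf7 and Isg15 stayed under 1 FPKM in every library. A total of 6 of the 9 passed the filter (group mean of 1 FPKM or more in either genotype), and of these 2 were called higher and 3 lower (limma on log2(FPKM + 1), Benjamini-Hochberg adjusted p under 0.05). Over all 14661 genes tested 66.2% were called, 43.0% higher and 23.2% lower, so a call as such sets no member apart. The median log2 difference of the 6 members was −0.43, and that of all genes tested was 0.21. Dhx58 passed the filter only through WT, which fixed its direction in advance.

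**Figure D1:**
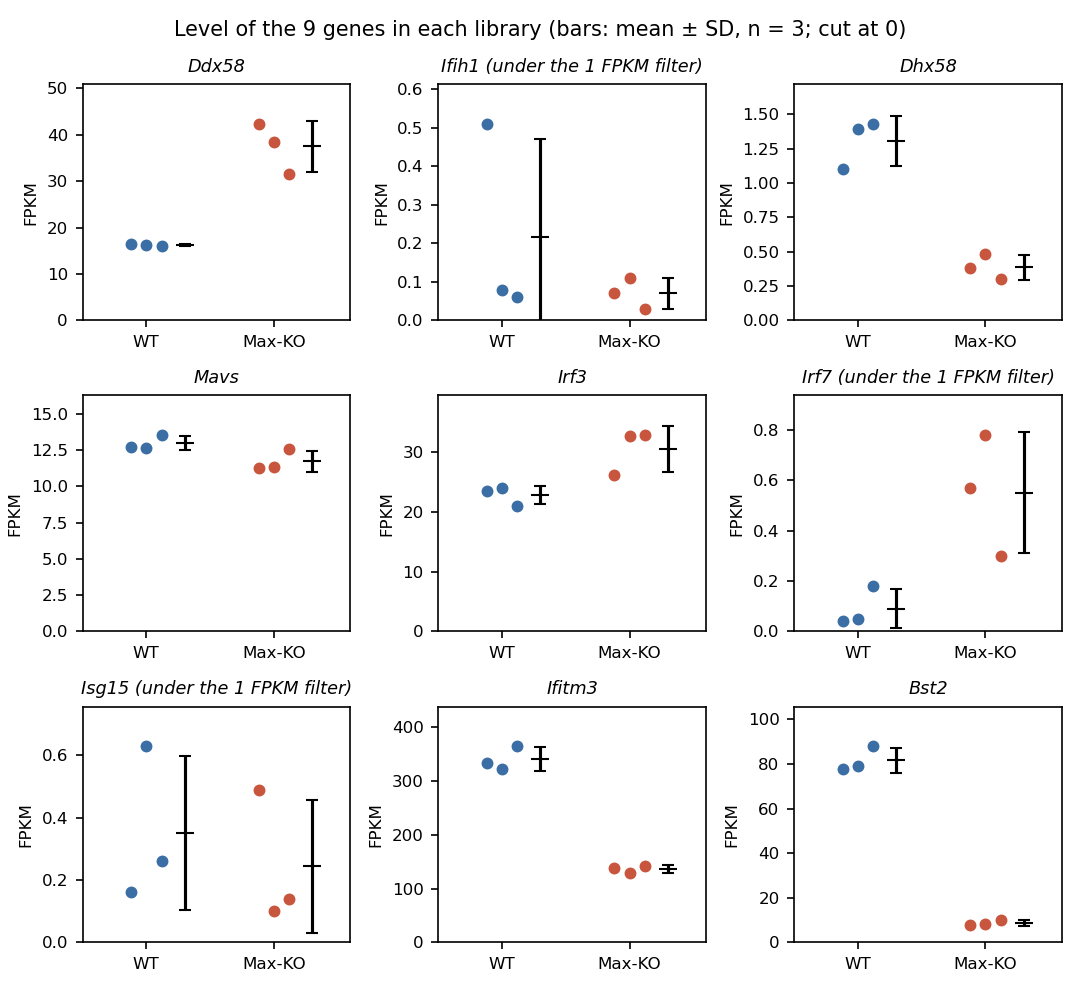
Level (FPKM, linear axis from 0) of each of the 9 genes in the 3 WT libraries (blue) and the 3 Max-KO libraries (red), with mean and SD beside the points. Bst2 lies at 77.8 to 88.2 FPKM in WT and 7.93 to 10.2 in Max-KO, whereas Ifih1, Irf7 and Isg15 never reach 1 FPKM.

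Of the sensors, Ddx58 encodes RIG-I, which binds short double-stranded RNA with a 5′ triphosphate (ENSMUSG00000040296; GRCm38 chromosome 4, 40203773 to 40239828, minus strand). It stood at 16.5, 16.1 and 16.0 FPKM in WT 1 to 3 and at 42.4, 38.5 and 31.6 FPKM in Max-KO 1 to 3. Every Max-KO library lay above every WT library, as held in 1 direction or the other for 72.0% of all genes tested, and the Max-KO libraries spread more widely than the WT libraries. The mean rose from 16.2 ± 0.237 to 37.5 ± 5.46 FPKM (SD, n = 3), a log2 difference of 1.15 ± 0.11 (SE; 95% interval 0.90 to 1.40; limma, adjusted p = 9.97e-05). Among all genes tested, 13.9% were called with a log2 difference of at least 1, and Ddx58 ranked 1617 from the highest.

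Dhx58 encodes LGP2, a helicase related to RIG-I that lacks its signalling domains and modulates MDA5 (ENSMUSG00000017830; chromosome 11, 100694884 to 100704271, minus strand). Its level was 1.10, 1.39 and 1.43 FPKM in WT and 0.38, 0.48 and 0.30 FPKM in Max-KO, without overlap. The means were 1.31 ± 0.180 and 0.387 ± 0.0902 FPKM (SD, n = 3), with a log2 difference of −0.73 ± 0.13 (SE; limma, adjusted p = 0.0019). At this level the pseudocount weighs on the difference, which was −1.54 with a pseudocount of 0.1. The antisense gene Dhx58os shares 141 exon bases with it but stayed at or below 0.07 FPKM.

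Ifih1 encodes MDA5, the sensor of long double-stranded RNA (ENSMUSG00000026896; chromosome 2, 62595798 to 62646255, minus strand). It was listed at 0.51, 0.08 and 0.06 FPKM in WT and 0.07, 0.11 and 0.03 FPKM in Max-KO. The groups overlapped, and WT 1 alone was above 0.11 FPKM. An exact permutation test of 3 against 3 libraries gave p = 0.5 (2-sided, smallest possible 0.1). Of the 3 sensors, RIG-I messenger was therefore the one listed above 2 FPKM in either genotype.

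Mavs, the adaptor on which RIG-I and MDA5 converge (ENSMUSG00000037523; chromosome 2, 131234063 to 131248025, plus strand), was at 12.7, 12.6 and 13.6 FPKM in WT and 11.3, 11.3 and 12.6 FPKM in Max-KO. The groups only just missed overlapping, the lowest WT library being at 12.63 and the highest Max-KO library at 12.56 FPKM. The means were 13.0 ± 0.502 and 11.7 ± 0.728 FPKM (SD, n = 3), and the log2 difference of −0.14 ± 0.08 missed the threshold (SE; 95% interval −0.32 to 0.04; limma, adjusted p = 0.153). The sign rested on the scaling: it was 0.08 after rescaling every library to the same sum (adjusted p = 0.364), but Mavs was called lower with median-ratio scaling (−0.37, adjusted p = 0.00653) and with quantile normalization (−0.40, adjusted p = 0.0047).

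Irf3, the constitutive transcription factor that MAVS signalling activates by phosphorylation (ENSMUSG00000003184; chromosome 7, 44997648 to 45002848, plus strand), was at 23.4, 23.9 and 21 FPKM in WT and 26.1, 32.6 and 32.9 FPKM in Max-KO. The groups did not overlap, with Max-KO 1 close to the WT libraries. The log2 difference was 0.40 ± 0.10 (SE; 95% interval 0.15 to 0.65; limma, adjusted p = 0.0119). The call was lost under median-ratio scaling (0.15, adjusted p = 0.209) and quantile normalization (0.27, adjusted p = 0.066). Irf3 and Bcl2l12, which lies head to head with it on the other strand, share 88 exon bases, and Bcl2l12 went from 20.5 ± 1.01 to 24.9 ± 2.56 FPKM (n = 3, SD; log2 difference 0.26 ± 0.09, limma adjusted p = 0.0307). No source used here says whether counting used strand, and reads in the shared bases cannot be told apart.

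Irf7, the interferon-inducible factor that amplifies type I interferon (ENSMUSG00000025498; chromosome 7, 141262706 to 141266481, minus strand), was listed at 0.04, 0.05 and 0.18 FPKM in WT and 0.57, 0.78 and 0.30 FPKM in Max-KO. All 3 Max-KO libraries lay above all 3 WT libraries (exact permutation test, 2-sided p = 0.1, the smallest possible with 3 against 3). With no filter the log2 difference was 0.50 ± 0.14 (SE; limma, adjusted p = 0.0293 over 29716 genes). It shares 45 exon bases with the far more abundant Phrf1 of the other strand, whose level was 53.4 ± 4.19 FPKM in WT (n = 3, SD) and 50.4 ± 3.90 FPKM in Max-KO.

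The effectors held both the highest level and the largest change. Bst2 encodes tetherin, a membrane protein that holds budding enveloped viruses at the cell surface (ENSMUSG00000046718; chromosome 8, 71534255 to 71537456, minus strand). It was at 77.8, 79.1 and 88.2 FPKM in WT 1 to 3 and at 7.93, 8.09 and 10.2 FPKM in Max-KO 1 to 3. The groups lay far apart, with no library between 10.2 and 77.8 FPKM. The mean fell from 81.7 ± 5.67 to 8.74 ± 1.27 FPKM (SD, n = 3), a log2 difference of −3.09 ± 0.10 (SE; 95% interval −3.34 to −2.85; limma, adjusted p = 2.42e-06). This was rank 11 from the lowest of 14661 genes, of which 4.86% were called at a log2 difference of −1 or below. None of its 50-base transcript words occurred in a transcript of another gene.

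Ifitm3, also known as fragilis, is a membrane protein that blocks the entry of enveloped viruses and marks early germ cells in the mouse embryo (ENSMUSG00000025492; chromosome 7, 141009586 to 141010770, minus strand). It was at 334, 323 and 366 FPKM in WT and 139, 128 and 142 FPKM in Max-KO, an estimated 3044 to 3574 and 1129 to 1694 fragments per library. The groups did not overlap, and the libraries within each lay close together. The mean fell from 341 ± 22.2 to 136 ± 7.07 FPKM (SD, n = 3), a log2 difference of −1.31 ± 0.07 (SE; 95% interval −1.47 to −1.16; limma, adjusted p = 8.79e-06), rank 359 from the lowest. It stayed the most abundant of the 9 genes in both genotypes. Of its 629 transcript words of 50 bases, 63 also occurred in other genes (the pseudogenes Gm7676 and Gm11951, the gene Gm45717, all at or below 0.5 FPKM, and the paralog Ifitm2), so its level carries some uncertainty.

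Isg15, a ubiquitin-like protein that is conjugated to target proteins after interferon (ENSMUSG00000035692; chromosome 4, 156199424 to 156200818, minus strand), was listed at 0.16, 0.63 and 0.26 FPKM in WT and 0.49, 0.10 and 0.14 FPKM in Max-KO. With its single short transcript these values stood for an estimated 2, 7 and 3 fragments in WT and 6, 1 and 2 in Max-KO. The groups overlapped (exact permutation test, 2-sided p = 0.5, smallest possible 0.1), and no difference was detectable at this depth. Of its 707 transcript words of 50 bases, 28 also occurred in the pseudogene AC151275.1. That pseudogene had means of 0 FPKM in WT and 0.63 FPKM in Max-KO, so the level of Isg15 carries further uncertainty.

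The order of levels changed with the genotype. In WT, Ifitm3 was followed by Bst2, Irf3, Ddx58, Mavs and Dhx58, with no overlap of libraries between neighbours in this order. Isg15, Ifih1 and Irf7 came last and overlapped. Bst2 exceeded 91.3% of the genes tested in WT and 43.7% in Max-KO. Ddx58 moved the other way, from 63.4% to 79.9%. In Max-KO the order was Ifitm3, Ddx58, Irf3, Mavs and Bst2, where Ddx58 and Irf3 overlapped, and Irf7, Dhx58, Isg15 and Ifih1 followed, each overlapping the next.

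**Figure D2:**
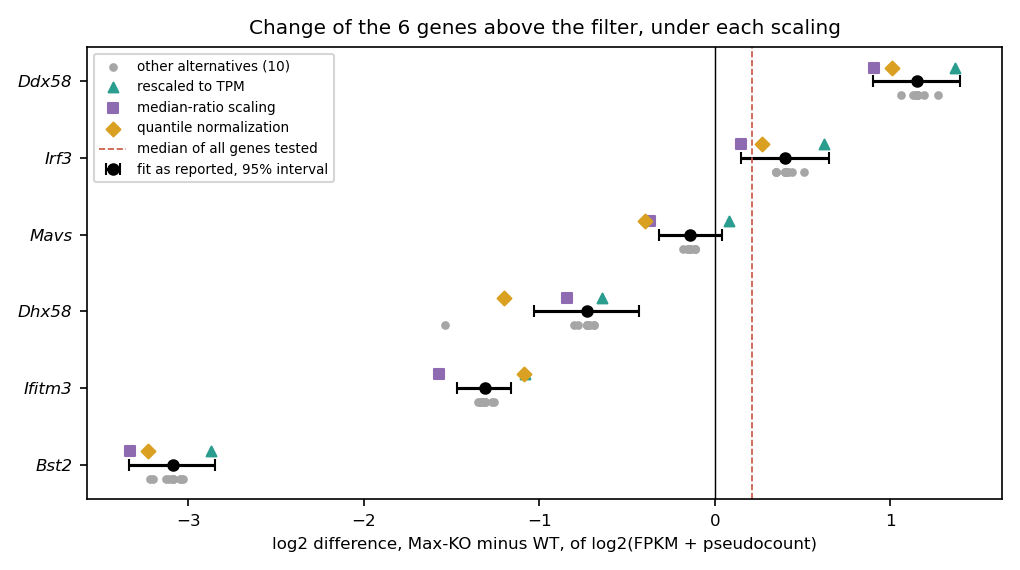
Log2 difference (Max-KO minus WT) of the 6 genes above the filter, with the reported fit and its 95% interval in black, 3 other scalings as coloured symbols and the remaining 10 alternatives in grey. Bst2, Ifitm3 and Dhx58 lie below 0 and Ddx58 above 0 under every alternative shown. Dhx58 passed the filter only through WT, so its direction was fixed wherever the filter was kept. Mavs crosses 0 after rescaling to TPM, and Irf3 comes close to 0 (0.15) under median-ratio scaling.

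The promoters were read for the element that interferon signalling uses, because Bst2, Ifitm3 and Ddx58 moved in opposite directions while Isg15 and Ifih1 stayed near 0. RefSeq windows from 250 bases before to 50 bases after the transcription start (GRCm38.p6) were held for 8 of the 9 genes, the other being Dhx58. The core of the interferon-stimulated response element, to which IRF proteins bind, was searched as GAAANNGAAA on both strands. A form with 1 base less between the repeats, GAAANGAAA, was added after the sequences were seen, and the E-box CACGTG bound by MYC and MAX was searched as well. In the stretches below, read 5′ to 3′ along each gene, capitals mark matches to either repeat form, and overlapping matches run together.

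Bst2, chr8:71537557-71537632, minus strand: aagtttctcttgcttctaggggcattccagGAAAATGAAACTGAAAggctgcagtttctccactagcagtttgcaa
Ifitm3, chr7:141010715-141010744, minus strand: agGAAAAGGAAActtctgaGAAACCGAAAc
Isg15, chr4:156200845-156200976, minus strand: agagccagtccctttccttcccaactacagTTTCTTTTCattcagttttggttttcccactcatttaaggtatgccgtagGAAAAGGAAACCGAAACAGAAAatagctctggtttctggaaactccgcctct
Ddx58, chr4:40239800-40239915, minus strand: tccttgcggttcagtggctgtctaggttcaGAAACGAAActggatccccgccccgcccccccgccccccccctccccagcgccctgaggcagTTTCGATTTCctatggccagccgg
Ifih1, chr2:62646206-62646235, minus strand: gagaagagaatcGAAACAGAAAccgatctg

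GAAANNGAAA was found in 5 of the 8 windows, those of Bst2, Ifitm3, Isg15, Ddx58 and Ifih1, against 3.44% of all 32851 windows. The 9 genes were picked as interferon genes, so this share is a description. Bst2 holds an overlapping pair beginning 130 and 124 bases before the start, and Isg15 an overlapping set of 3 beginning 78, 72 and 66 bases before it. Ifitm3 holds a pair at bases 3 and 20 of the transcript as RefSeq places its start. Ddx58 carries GAAACGAAA 60 bases before the start, a form found in 3.17% of windows, and a GAAANNGAAA match on the opposite strand at base 3. Mavs, Irf3 and Irf7 held no match to any of the 3 motifs in these windows, and no window of the 8 held CACGTG, against 7.15% of all windows. The match did not separate the directions: of the genes with it, Bst2 and Ifitm3 were lower, Ddx58 was higher, and Isg15 and Ifih1 were under the filter. Across the 344 tested genes whose window held GAAANNGAAA, 41.9% were called higher and 25.3% lower, beside 42% and 24.9% of the 10394 tested genes with a window.

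The surroundings of the 2 effectors in the genome differed in how they moved. Within 100 kb of Bst2, 11 other protein-coding genes passed the filter, of which 9 were called lower and none higher (limma), with a median log2 difference of −0.81. This window was examined after the values were seen, and 23.2% of all genes were called lower. Of the 9, Unc13a (1.87 to 0.637 FPKM) was above the filter in WT alone and so could only be lower. Abhd8 fell from 12.2 to 2.49 FPKM (log2 difference −1.93 ± 0.13), Pgls from 36.7 to 15.9 FPKM (−1.15 ± 0.11) and Mrpl34, a mitochondrial ribosomal protein, from 72.8 to 40.0 FPKM (−0.85 ± 0.06). Mvb12a, a subunit of the ESCRT-I sorting complex, fell from 47.2 to 27.0 FPKM, while Slc27a1 and Dda1 were not called. The count of lower genes was 9 to 10 under the 3 other scalings, and Bst2 had the lowest difference of the window. Within 100 kb of Ifitm3, of 7 tested genes Ifitm1 and Ifitm2 were called lower, and Sigirr, Ano9 and Pgghg higher. These shares were near those of all genes tested, 23.2% lower and 43.0% higher.

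**Figure D3:**
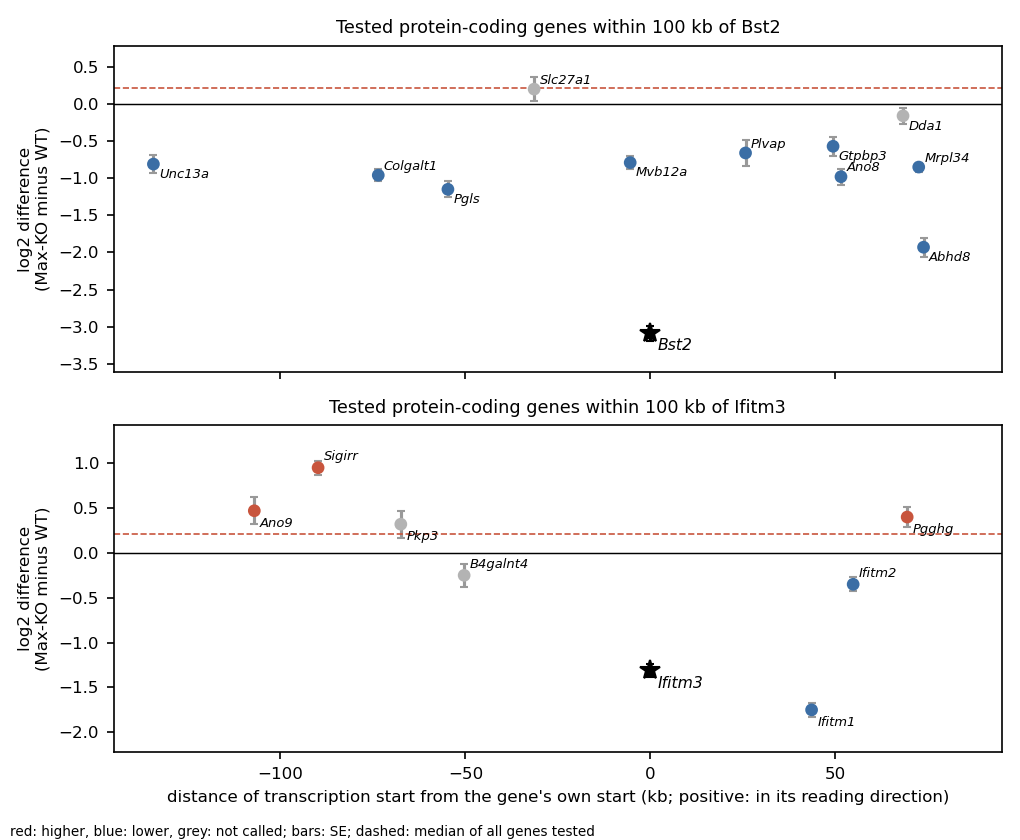
Log2 difference (Max-KO minus WT, with SE) of tested protein-coding genes within 100 kb of Bst2 (top) and Ifitm3 (bottom), against the distance of their start sites in kb, with the gene itself as a star. Around Bst2, 9 of 11 genes are lower, Unc13a among them having passed the filter only through WT. Around Ifitm3 the lower genes are Ifitm1 and Ifitm2 and the higher genes Sigirr, Ano9 and Pgghg, shares near those of all genes tested.

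The Ifitm relatives of Ifitm3 form a gene cluster on chromosome 7 and belong to the same family of antiviral membrane proteins. Ifitm1 fell from 533 ± 31.7 to 158 ± 13.8 FPKM (n = 3, SD; log2 difference −1.75 ± 0.08, limma adjusted p = 5.58e-06). Ifitm2 went from 502 ± 31.8 to 395 ± 32.6 FPKM (−0.35 ± 0.08, limma adjusted p = 0.00628). That call did not hold when libraries were rescaled to TPM (−0.12) or quantile normalized (−0.01). Of the 3 abundant members, Ifitm1 and Ifitm3 were thus lower, while for Ifitm2 a difference rested on the scaling. Ifitm2 became the most abundant of the 3 in Max-KO. Ifitm7 rose from 0.417 to 1.80 FPKM, passing the filter only through Max-KO.

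Of 33 partners of RNA sensing, the kinases, ubiquitin ligases and adaptors between the sensors and the interferon genes, 30 passed the filter, 19 were higher and 3 lower (Zcchc3, Pcbp2 and Tomm70a), with a median log2 difference of 0.35. Over all genes tested 43.0% were higher and 23.2% lower, with a median of 0.21. Of the 19, Ikbke and Irak4 were above the filter in Max-KO alone and so could only be higher. The split was 21 and 1 after rescaling to TPM, 10 and 6 with median-ratio scaling and 13 and 8 with quantile normalization. Ikbke, the inducible kinase of IRF3, went from 0.253 to 1.59 FPKM. Its relative Tbk1 rose from 18.1 ± 2.08 to 25.6 ± 2.58 FPKM (SD, n = 3). Chuk, an IκB kinase subunit, rose from 27.3 to 53.0 FPKM, and Nlrx1, a mitochondrial protein that restrains MAVS, from 1.38 to 3.83 FPKM. Tomm70a, an import receptor that binds MAVS, fell from 56.7 to 42.1 FPKM. Among 18 tested genes of double-stranded RNA handling and antiviral RNA decay, a list that also holds RNase H2 subunits and exosome cofactors, 6 were higher and 6 lower (9 and 4, 2 and 10, and 5 and 8 under the 3 scalings in the same order). The editor Adar was not called, at 16.0 to 17.2 FPKM in WT and 17.2 to 17.7 in Max-KO.

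**Figure D4:**
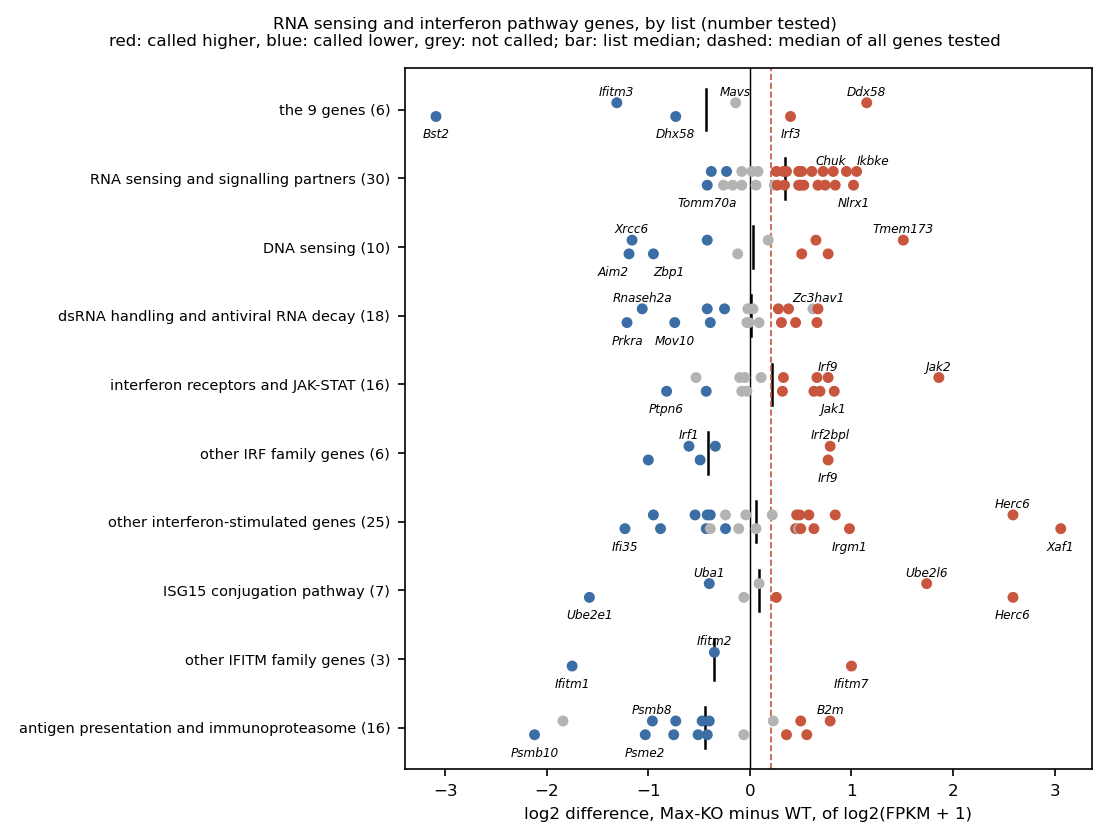
Log2 difference (Max-KO minus WT) of every tested gene in each list of the RNA sensing and interferon pathways, coloured by its call, with the list median as a bar. Of the partners of RNA sensing 19 are higher and 3 lower, beside 43.0% and 23.2% of all genes tested. Ikbke and Irak4 among the 19 passed the filter only through Max-KO. The split was 10 and 6 with median-ratio scaling and 13 and 8 with quantile normalization. The other interferon-stimulated genes spread from −1.23 (Ifi35) to 3.06 (Xaf1).

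Interferon itself was not seen in either genotype: 18 of 21 interferon genes, Ifnb1 among them, were listed at 0 in all 6 libraries, and the others, Ifna13, Ifnk and Ifng, never exceeded 0.19 FPKM. Its receptor and signalling chain was expressed. Of 16 tested genes 8 were higher and 2 lower, Stat2 and Ptpn6 (10 and 1, 6 and 4, and 5 and 5 under the 3 scalings), beside 43.0% and 23.2% of all genes tested. The lower count was 1 when Max-KO 1, Max-KO 2 or Max-KO 3 was left out. Jak2 rose from 1.19 ± 0.345 to 6.88 ± 0.544 FPKM (n = 3, SD; log2 difference 1.86 ± 0.14, limma adjusted p = 4.32e-05) and Jak1 from 11.1 to 20.5 FPKM. Irf9, the IRF subunit of the complex that interferon activates, rose from 4.16 to 7.75 FPKM. Stat2 was at 17.4 ± 3.44 FPKM in WT and 12.6 ± 0.433 FPKM in Max-KO (n = 3, SD; limma adjusted p = 0.0233). In the rest of the IRF family, Irf1 fell from 41.3 ± 2.01 to 26.8 ± 0.834 FPKM (n = 3, SD).

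Of 48 other interferon-stimulated genes, 21 stayed under 1 FPKM in every library, among them Ifit1, Ifit3, Mx1, Rsad2 and Usp18, and 25 were tested. Of the 25, 10 were higher and 8 lower, with a median log2 difference of 0.06. Over all genes tested 43.0% were higher and 23.2% lower, with a median of 0.21. Of the called genes, Herc6 passed the filter only through Max-KO and Oasl2 only through WT. The larger share changed sides with the scaling (11 and 4 after rescaling to TPM, 6 and 10 with median-ratio scaling, 5 and 11 with quantile normalization). Xaf1, which antagonizes the apoptosis inhibitor XIAP, rose from 6.05 ± 1.34 to 58.1 ± 11.9 FPKM (n = 3, SD; log2 difference 3.06 ± 0.19, limma adjusted p = 2.39e-05). Irgm1, an interferon-induced GTPase, rose from 6.01 to 12.9 FPKM, while Ifi35 fell from 8.34 to 2.99 FPKM. For the conjugation of ISG15, the ligase Herc6 went from 0.417 ± 0.165 to 8.13 ± 4.44 FPKM, with 13.2 FPKM in Max-KO 2 and under 6 in the others, and passed the filter only through Max-KO. The conjugating enzyme Ube2l6 rose from 12 ± 1.48 to 42.1 ± 1.51 FPKM (SD, n = 3). Of 7 tested genes listed for ISG15 conjugation, 3 were higher and 2 lower, beside 43.0% and 23.2% of all genes tested. The lower genes were Ube2e1, from 28.1 to 8.86 FPKM, and Uba1, from 203 to 154 FPKM. The activating enzyme Uba7 stayed at or below 0.20 FPKM, as low as Isg15.

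Likeness across the 6 libraries, given as a description, was measured by Pearson's r of log2(FPKM + 1), which here mostly reflects the split between the genotypes. Among the genes of the lists, Bst2 was most like Ifitm1 (0.999), Ifitm3 most like Bst2 (0.997), Ddx58 most like Irgm1 (0.997) and Dhx58 most like the proteasome subunit Psmb10 (0.988). Mavs was most like Ifitm2 (0.961) and Irf3 most like Irak4 (0.961). Of all protein-coding genes tested, the most alike were Tpt1 for Bst2, Rcc1 for Ifitm3, Stx5a for Ddx58, Mrpl21 for Dhx58, Pgap2 for Mavs and Eif5a2 for Irf3. An r above 0.99 was shared by 547 genes with Bst2, 533 with Ifitm3 and 237 with Ddx58, so these neighbours in pattern are many.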

How the data were processed

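Each deposited file lists gene identifiers with FPKM values. The submitters' processing notes name build GRCm38.p6 and, without role or order, the tools RSEM, HISAT2 2.1.0, DESeq 1.26.0 and FastQC. The unit was checked against the steps between low values. Symbols and coordinates came from GENCODE M21. A gene was kept when either genotype averaged 1 FPKM or more. The log2(FPKM + 1) of all 14661 such genes went into 1 fit by genotype in limma 3.58.1 (R 4.3.3) with a mean-variance trend and robust, 2-sided tests. Log2 differences are Max-KO minus WT and understate the change of low genes. The fit was tested on simulated data. The 9 genes and the lists were chosen with earlier results of these data known; the rule for other named genes took up to 4 called genes a list by size of difference, genes a result turns on, and the most alike genes. The alternatives were another pseudocount, no filter, 3 scalings, no trend, a replicate block and leaving out each library. The scaling named TPM brought each library to the mean of the FPKM sums, so its values are proportional to TPM but not on its scale. Some genes of the lists are not reported here by name. Tables were handled in Python 3.11.15.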

Additional observations from a re-analysis of the deposited data

How the results depend on the processing

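Bst2, Ifitm3, Dhx58 and Ddx58 kept their direction and call under all 13 alternatives run, with log2 differences from −3.33 to −2.87, −1.57 to −1.08, −1.54 to −0.64 and 0.91 to 1.37. For Dhx58, above the filter in WT alone, the direction was fixed in advance wherever the filter was kept. With quantile normalization as with median-ratio scaling, 1 of the 9 genes was higher and 4 were lower, as Irf3 (0.27 and 0.15) lost its call and Mavs (−0.40 and −0.37) gained one; with no filter 3 were higher, Irf7 being the third. Rescaling to TPM reversed Mavs to 0.08, Max to 0.06 and Phrf1 to 0.14. Over all genes 64.9% of calls were higher, against 77.7% after rescaling to TPM, 47.5% with median-ratio scaling and 46.7% with quantile normalization, and the median of all genes was 0.21, 0.41, −0.01 and −0.02. The Bcl2l12 call was lost without WT replicate 1 (0.22) and without Max-KO replicate 2 (0.18), with no filter (0.26), and under median-ratio (0.02) and quantile scaling (0.09). Same-numbered libraries did not deviate together (correlations −0.001, 0.016 and 0.086 over 14661 genes), so no pairing by number was seen. The labels do not say whether the numbers pair the libraries. With the replicate block 2 of the 9 genes were higher and 3 lower, and 6203 and 3282 of all genes. Depth limits Isg15, whose values stand for an estimated 1 to 7 fragments per library.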

Other observations

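Genes for antigen presentation and the immunoproteasome, which interferons also induce, went both ways in the libraries labelled Max-KO: of 16 tested 9 were lower and 4 higher (limma, adjusted p under 0.05), with a median log2 difference of −0.44 beside 0.21, 43.0% higher and 23.2% lower for all genes tested. Tap1, Psmb8, Psmb9 and Erap1 passed the filter only through WT, which fixed their direction, and the first 3 of them are among the 9. Of the genes that passed through both genotypes, 6 were lower and 4 higher. The split was 4 higher and 7 lower after rescaling to TPM, 1 and 10 under median-ratio scaling and 2 and 10 under quantile normalization. Psmb10, a catalytic subunit of the immunoproteasome, fell from 61.8 ± 3.37 to 13.5 ± 1.75 FPKM (n = 3, SD; log2 difference −2.12 ± 0.10, limma adjusted p = 5.88e-06), and Psmb8 went from 1.19 to 0.120 FPKM and Psmb9 from 1.55 to 0.520 FPKM. The activator subunit Psme2 fell from 63.5 to 30.6 FPKM, while B2m, the light chain of class I molecules, rose from 26.2 ± 1.36 to 46.2 ± 4.72 FPKM.

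In the DNA sensing list, which holds sensors, STING and also nucleases and DNA repair proteins, 4 were higher and 4 lower of 10 tested, beside 43.0% and 23.2% of all genes tested. Tmem173, which encodes STING, rose from 2.24 ± 0.6 to 8.17 ± 1.24 FPKM (n = 3, SD; log2 difference 1.51 ± 0.17, limma adjusted p = 2.26e-04). Cgas, the enzyme upstream of it, went from 0.36 to 1.14 FPKM and passed the filter only through Max-KO. Aim2, an inflammasome sensor, fell from 42.4 ± 5.30 to 18 ± 2.30 FPKM, and Zbp1, a sensor of Z-form nucleic acid, from 6.75 to 3.11 FPKM. Both directions were present under the 3 other scalings (5 and 4, 4 and 5, and 2 and 4).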
